A study of Mus musculus with 32 samples.

Results

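Nphs1, Podxl, Synpo, Ptpro, Clic5, Magi2, Cdkn1c and Vegfa are genes of the podocyte, the epithelial cell that wraps the capillaries of the glomerulus and forms the outer layer of the renal filter. Not all are particular to it, and Podxl, Cdkn1c and Vegfa are also made by other cells. The 8 genes were taken as a set list of symbols, matched to the deposited Ensembl identifiers, out of 54417 genes that the 4 count tables of the series share. RNA was counted in 32 libraries of embryonic mouse kidney that fall into 11 groups. In the nephron lineage, whole E18.5 kidneys came from Six2-TGCtg/+;Enl+/+ controls, Six2-TGCtg/+;EnlT1/+ and Six2-TGCtg/+;EnlT3/+ embryos (2 libraries each), and tdT+ cells were sorted from Six2-TGCtg/+;Enl+/+ and Six2-TGCtg/+;EnlT1/+ kidneys at E14.5 and at E18.5 (3 libraries each). In the stromal lineage, at E18.5, tdT+ cells (4 libraries each) and whole kidneys (3 libraries each) came from Foxd1GC/+;Enl+/+ and Foxd1GC/+;EnlT1/+ embryos. T1 is an in-frame insertion and T3 a small in-frame deletion in the YEATS domain of ENL, the chromatin reader encoded by Mllt1 (also called Enl), and each mutant embryo carried 1 wildtype allele and 1 conditional (floxed) allele. The conditional allele makes wildtype ENL until Cre acts and mutant ENL from its own promoter afterwards, so whole kidneys hold mutant cells of the Cre lineage beside cells without mutant ENL. Controls are called ENLWT below and carried the same Cre alleles as the mutants. Six2-TGC is a BAC transgene that drives Cre in nephron progenitors, from which podocytes descend, and also gives aberrant Six3 expression. Foxd1GC is a knock-in that drives Cre in stromal progenitors and leaves 1 working Foxd1 allele. The sorted cells carried a Cre-dependent tdT reporter, and embryos of both sexes were used.

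Podocytes extend interlocking foot processes over the glomerular capillaries, and the gaps between these are bridged by the slit diaphragm, a cell junction built around nephrin. Adaptor proteins tie the slit diaphragm to the actin cytoskeleton, and a negatively charged coat on the apical surface keeps neighbouring foot processes apart. Podocytes leave the cell cycle as they mature and supply VEGF-A to the glomerular endothelium.

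Total counts per library ran from 2557443 to 3508381 in sorted Foxd1 cells, from 67137194 to 79343015 in whole Foxd1 kidneys, from 76510702 to 137888792 in sorted Six2 cells and from 106005614 to 157266455 in whole Six2 kidneys. Mllt1, the targeted gene, was counted at 76.5 to 105 CPM (counts-per-million, on TMM-scaled library sizes within each table) in whole Six2 kidneys, 200 to 233 at E14.5 and 82.1 to 93.2 at E18.5 in sorted Six2 cells, 27.2 to 45.2 in sorted Foxd1 cells and 98.5 to 125 in whole Foxd1 kidneys. The mutations lie within its coding sequence, so its level does not check the labels. Six3 was detected in every Six2 library at 7.97 to 160 CPM and had at most 2 counts in any Foxd1 library. Summed over 7 podocyte markers, 4 of which are among the 8 genes, the level was 3486 to 3930 CPM in sorted ENLWT Six2 cells at E18.5 against 281 to 309.9 at E14.5 and 543 to 926 in sorted ENLWT Foxd1 cells. The Foxd1 sort thus held podocyte transcripts although podocytes are not a stromal cell type, and which cells carried them was not tested.

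On mm10, with the gene models of GENCODE, 7 of the genes lie as follows, and the place of Synpo is given with its values. Nphs1 is at chr7:30458315-30487223 on the plus strand, and 11.8% of its exon bases are shared with Nphs1os or Rps12-ps4 on the opposite strand. Podxl is at chr6:31519488-31563981 (minus), Ptpro at chr6:137252319-137463233 (plus) and Clic5 at chr17:44188584-44280172 (plus). Magi2 spans chr5:19227036-20704792 (plus) and shares 1.79% of its exon bases with Gm29254. Cdkn1c is at chr7:143458339-143461050 (minus), and 30.7% of its exon bases are shared with Gm44732 on the opposite strand. Vegfa is at chr17:46016993-46032369 (minus). Reads were counted without regard to strand, so reads from the shared exons of Nphs1 and Cdkn1c cannot be assigned to a strand. Nphs1os itself had at most 19 counts in any library.

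RefSeq promoter entries on GRCm38.p6 matched 5 of the 8 genes. The 4 windows printed here, each 250 bases upstream of an annotated start and read 5′ to 3′ on the gene's strand, are those of the matched genes with a window outside annotated exons, and let the letters upstream of members with unlike values be read side by side: Ptpro was higher in mutant cells at E14.5, Clic5 was called in both sorted lineages, Magi2 overlapped between E14.5 and E18.5 in mutant cells, and Vegfa was called in whole Foxd1 kidneys. Capitals mark matches, on either strand, to motifs that were searched. Ptpro is at chr6:137252049-137252298 (plus), Clic5 at chr17:44188322-44188571 (plus), Magi2 at chr5:19907268-19907517 (plus, at an internal start) and Vegfa at chr17:46032378-46032627 (minus).
Ptpro: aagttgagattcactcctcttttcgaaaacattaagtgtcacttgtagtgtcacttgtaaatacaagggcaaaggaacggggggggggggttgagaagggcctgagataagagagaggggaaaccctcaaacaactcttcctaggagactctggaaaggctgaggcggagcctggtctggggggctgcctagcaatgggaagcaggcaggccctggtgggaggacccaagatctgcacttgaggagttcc
Clic5: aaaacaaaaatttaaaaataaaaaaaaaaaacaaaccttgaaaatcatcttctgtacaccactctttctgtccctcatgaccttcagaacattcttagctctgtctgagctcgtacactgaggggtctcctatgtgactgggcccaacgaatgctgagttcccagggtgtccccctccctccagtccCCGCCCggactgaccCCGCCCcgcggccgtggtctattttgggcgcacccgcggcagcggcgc
Magi2: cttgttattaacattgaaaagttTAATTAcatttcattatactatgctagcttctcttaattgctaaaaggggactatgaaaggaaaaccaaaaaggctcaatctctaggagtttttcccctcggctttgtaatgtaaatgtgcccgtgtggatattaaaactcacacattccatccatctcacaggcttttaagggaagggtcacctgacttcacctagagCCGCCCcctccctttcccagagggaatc
Vegfa: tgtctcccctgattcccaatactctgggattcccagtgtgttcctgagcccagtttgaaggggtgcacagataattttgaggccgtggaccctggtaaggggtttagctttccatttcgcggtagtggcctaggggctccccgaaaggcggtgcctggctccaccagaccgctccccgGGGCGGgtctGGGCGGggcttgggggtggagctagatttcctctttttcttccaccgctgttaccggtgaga
The searched letters included GCGGGGGCG and GCGTGGGCG (WT1/EGR type), GGGCGG (GC box), CAGCTG (E-box), TAATTA (LMX1B-type homeobox) and TGTTTAC (forkhead), and no matches overlapped in these windows. GGGCGG matched at 2 places in Clic5, 2 in Vegfa and 1 in Magi2, and 32.7% of 32841 promoters of the same length hold it. TAATTA matched at 1 place in the internal Magi2 window, against 4.84% of all promoters. The Ptpro window held none of the searched motifs. Magi2 has another entry at the start of the gene, chr5:19226796-19227045, with 10 bases in an exon, which is not printed. That window held CAGCTG at 1 place and neither TAATTA nor GGGCGG, and 13% of promoters hold CAGCTG. A match describes the letters and not a binding site.

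Podocyte genes were lower in Six2-ENLT1 mutants at E18.5, in sorted cells and in whole kidneys. Counts were scaled with TMM factors. Adjusted p is Benjamini-Hochberg over all tested genes, from edgeR's quasi-likelihood test, and a call means that it was under 0.05 and that the groups differed by over 1.5-fold. In sorted cells all 8 genes were called lower in ENLT1, where 5.54% of 22685 tested genes were called lower, and the median log2 fold change of the 8 was -2.98 against 0.015 over all genes. In whole Six2 kidneys 6 of 8 were called lower in ENLT1, where 4.88% of 23931 genes were called lower, with a median of -1.22 against -0.013. Cdkn1c and Vegfa were the members not called there. The 8 genes were chosen with earlier results of these data known, so these counts describe them and are no independent support. In these whole kidneys and cell pools, fewer podocytes and less RNA per podocyte cannot be told apart. The labels do not say that libraries of a group came from separate animals, and p-values measure the spread between these libraries.

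**Figure D1:**
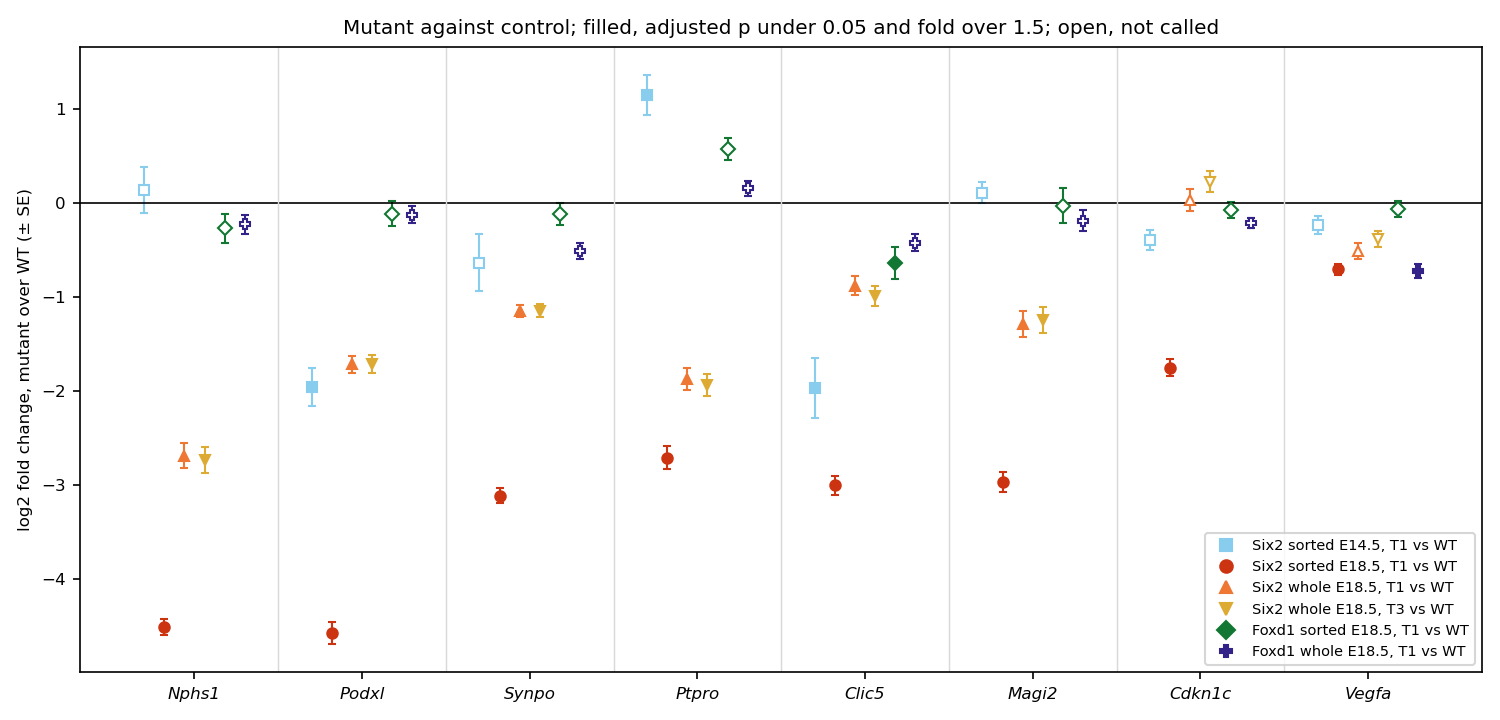
Log2 fold changes (vertical axis, mutant minus ENLWT, ± SE) of the 8 podocyte genes in 6 comparisons, with filled points for called genes. The points of sorted Six2 cells at E18.5 lie between -4.57 and -0.70, and those of the 2 Foxd1 comparisons between -0.72 and 0.57.

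Of the slit diaphragm genes, Nphs1 encodes nephrin, the backbone of the slit diaphragm. In sorted Six2 cells at E18.5 its level was 203, 219 and 192 CPM in the 3 ENLWT libraries and 8.47, 8.55 and 9.80 CPM in the 3 ENLT1 libraries. Every mutant was far below every control, and the mutant mean was 4.37% of the control mean (log2 fold change -4.51 ± 0.085 SE, adjusted p = 6.45e-12). The whole Six2 kidneys had Nphs1 at 38.2 and 47.3 CPM in ENLWT, 6.07 and 7.26 in ENLT1 and 6.20 and 6.72 in ENLT3. Both mutants lay below both controls, with log2 fold changes of -2.68 ± 0.14 SE, adjusted p = 4.65e-05 for T1 and -2.73 ± 0.14 SE, adjusted p = 3.78e-05 for T3. The T1 and T3 comparisons share the same 2 control libraries.

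Magi2 encodes a scaffold protein that binds nephrin at the slit diaphragm. Sorted E18.5 Six2 cells had 50.9, 65.3 and 56.0 CPM in ENLWT and 7.00, 7.73 and 7.17 CPM in ENLT1. The groups were far apart, at a log2 fold change of -2.97 ± 0.11 SE, adjusted p = 6.6e-10. Whole Six2 kidneys had 12.8 and 17.1 CPM in ENLWT, 6.11 and 6.15 in ENLT1 and 6.03 and 6.604 in ENLT3. No mutant kidney reached a control, and the log2 fold changes were -1.29 ± 0.14 SE, adjusted p = 0.000990 for T1 and -1.24 ± 0.14 SE, adjusted p = 0.000989 for T3.

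Ptpro encodes a receptor tyrosine phosphatase of the podocyte surface, also known as GLEPP1. It was counted at 406, 346 and 305 CPM in sorted ENLWT Six2 cells at E18.5 and at 55.2, 44.7 and 61.4 CPM in ENLT1. All mutants were lower, with a log2 fold change of -2.71 ± 0.12 SE, adjusted p = 6.31e-09. Whole Six2 kidneys gave 59.2 and 77.1 CPM in ENLWT, 18.4 and 18.9 in ENLT1 and 18.1 and 17.6 in ENLT3. Controls and mutants did not overlap (log2 fold change -1.87 ± 0.12 SE, adjusted p = 0.000109 for T1 and -1.93 ± 0.12 SE, adjusted p = 8.44e-05 for T3).

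Of the foot process genes, Podxl encodes podocalyxin, the sialomucin of the apical coat. Its level in sorted Six2 cells at E18.5 was 1793, 2041 and 1751 CPM in ENLWT and 75.8, 66.0 and 92.6 CPM in ENLT1, or 4.20% of the control mean. This was the lowest share among the 8 genes, and every mutant was far below every control (log2 fold change -4.57 ± 0.12 SE, adjusted p = 5.87e-11). Levels in whole Six2 kidneys were 508 and 586 CPM in ENLWT, 161 and 173 in ENLT1 and 175 and 159.5 in ENLT3. Those groups were separate from the controls as well, with log2 fold changes of -1.72 ± 0.092 SE, adjusted p = 5.32e-05 for T1 and -1.71 ± 0.092 SE, adjusted p = 4.28e-05 for T3. Podxl is also made by endothelial cells and other cell types, so in whole kidney it does not mark podocytes alone.

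Synpo, at chr18:60593973-60660142 on the minus strand, encodes synaptopodin, an actin-associated protein of foot processes. Libraries of sorted E18.5 cells held 165, 159.9 and 139 CPM in ENLWT and 18.48, 17.1 and 17.9 CPM in ENLT1. The log2 fold change was -3.11 ± 0.080 SE, adjusted p = 5.84e-11, without overlap. The whole Six2 kidneys held 112 and 110.4 CPM in ENLWT, 49.7 and 50.7 in ENLT1 and 53.3 and 47.5 in ENLT3. Both mutants were lower by a similar amount, -1.15 ± 0.067 SE, adjusted p = 7.38e-05 for T1 and -1.14 ± 0.067 SE, adjusted p = 6.15e-05 for T3 on the log2 scale.

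Clic5 encodes a protein that links podocalyxin and ezrin to actin. The sorted E18.5 values were 224, 259.9 and 225 CPM in ENLWT and 31.9, 24.7 and 31.8 CPM in ENLT1. Mutants sat below controls in all libraries (log2 fold change -3.00 ± 0.10 SE, adjusted p = 4.91e-10). In whole Six2 kidneys Clic5 was at 103 and 107 CPM in ENLWT, 52.7 and 61.7 in ENLT1 and 57.6 and 48.2 in ENLT3. Its whole-kidney decrease was the smallest of the 6 called genes for T1 (-0.88 ± 0.10 SE, adjusted p = 0.00132) and for T3 (-0.99 ± 0.10 SE, adjusted p = 0.000675).

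**Figure D2:**
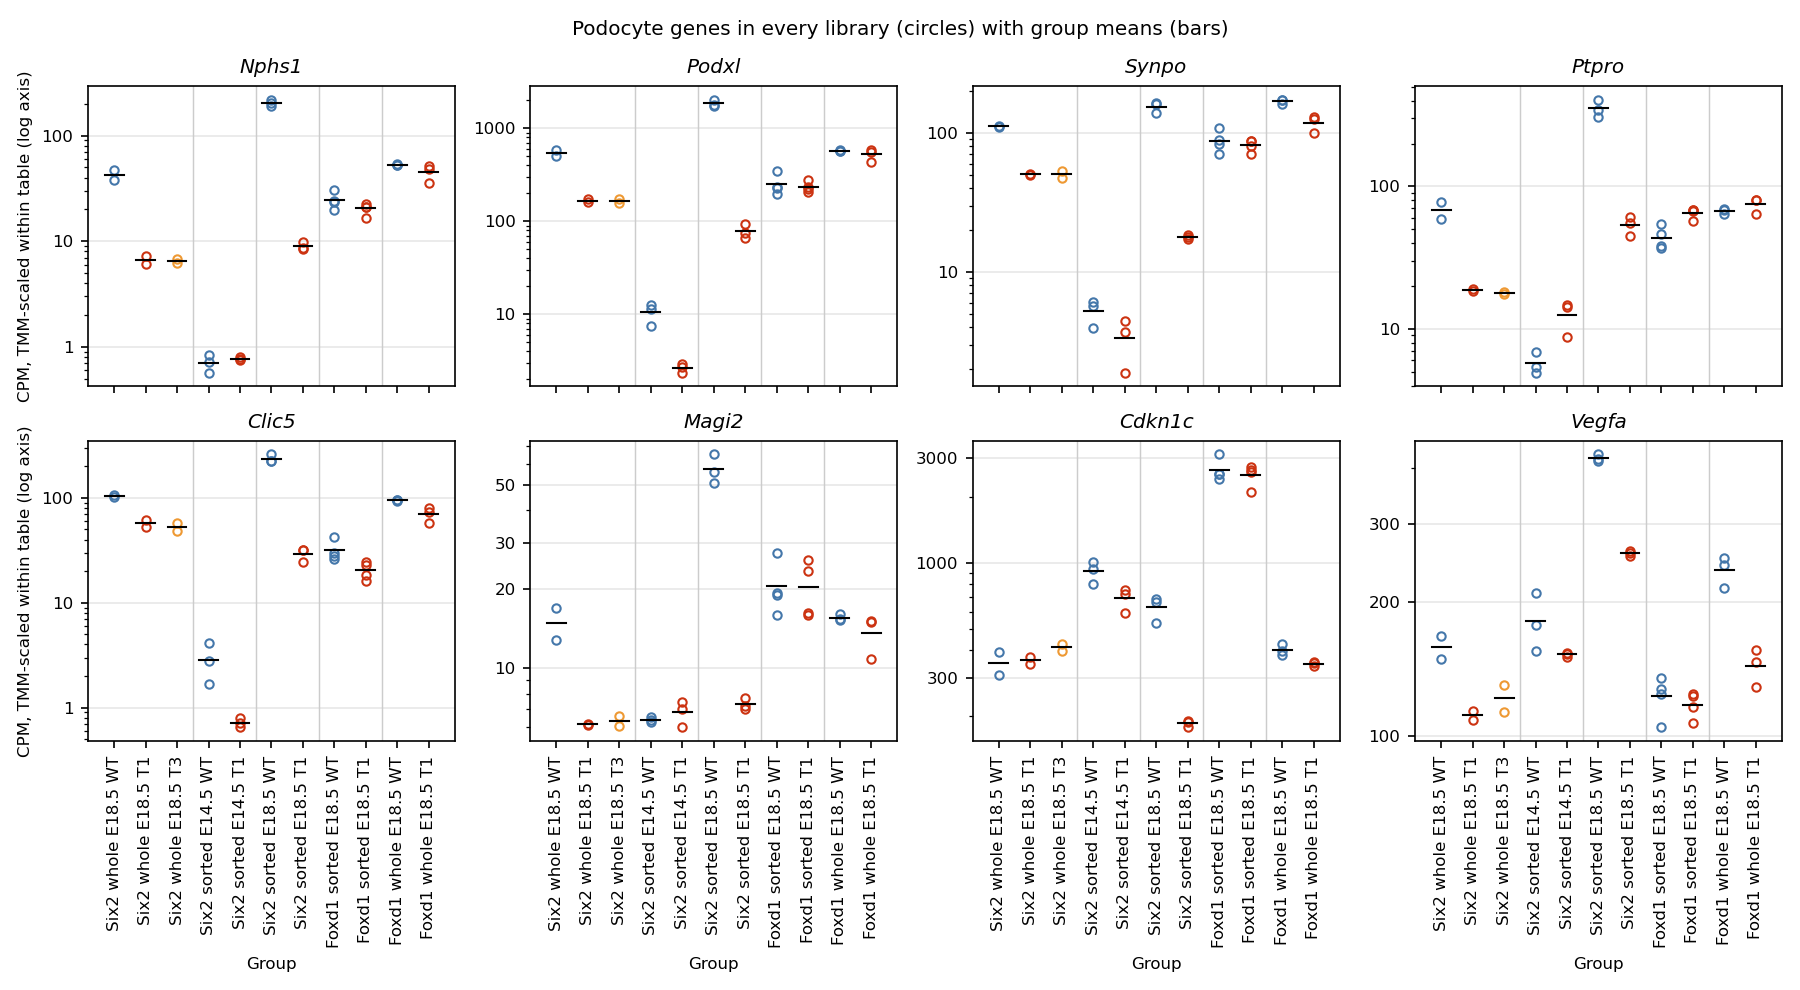
Level of each of the 8 podocyte genes in every library, in CPM scaled by TMM within each count table, on a log axis, by group. Circles are libraries (blue ENLWT, red ENLT1, orange ENLT3) and bars are group means. For Nphs1 the sorted E18.5 Six2 controls lie at 192 to 219 CPM and the mutants at 8.47 to 9.80.

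Cdkn1c encodes p57, a cyclin-dependent kinase inhibitor that is imprinted and is present in post-mitotic podocytes as well as in other kidney cells. In sorted Six2 cells at E18.5 it was at 530, 687 and 665 CPM in ENLWT and 178, 189 and 191 CPM in ENLT1. Controls and mutants were apart, with a log2 fold change of -1.75 ± 0.090 SE, adjusted p = 2.13e-08. Whole Six2 kidneys had 309.6 and 393 CPM in ENLWT, 371 and 347 in ENLT1 and 429 and 395 in ENLT3. The T1 and control kidneys overlapped, and neither T1 (0.033 ± 0.11 SE, adjusted p = 0.899) nor T3 (0.23 ± 0.11 SE, adjusted p = 0.223) was called. Cdkn1c was thus called lower in sorted cells and not in whole kidneys, and the difference between these was not tested.

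Vegfa encodes the growth factor that podocytes release towards glomerular endothelium, and tubule cells make it too. Its sorted E18.5 levels were 430.2, 421 and 415 CPM in ENLWT and 258, 261 and 254 CPM in ENLT1. The mutant mean was 61.1% of the control mean, the smallest decrease of the 8 genes (log2 fold change -0.70 ± 0.058 SE, adjusted p = 1.52e-06). Whole Six2 kidneys held 168 and 149 CPM in ENLWT, 109 and 114 in ENLT1 and 113 and 130.1 in ENLT3. All mutants were below the controls, but T1 (-0.51 ± 0.086 SE, adjusted p = 0.00695) and T3 (-0.38 ± 0.086 SE, adjusted p = 0.0208) stayed under the fold threshold.

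T3 and T1 kidneys could be compared with each other directly. In whole Six2 kidneys 0.00418% of genes were called between them, and none of the 8 podocyte genes was called by edgeR's quasi-likelihood test, by its exact test or by DESeq2, and none had an unadjusted p under 0.05. Their log2 differences, T3 minus T1, ran from -0.11 to 0.20 with SEs of 0.066 to 0.142, which does not show that the alleles act alike. Against controls, 5.28% of genes were called lower in T3 and 6 of the 8 podocyte genes were (Nphs1, Podxl, Synpo, Ptpro, Clic5 and Magi2). As the controls are shared, the T1 and T3 comparisons are not independent.

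Markers of other cells moved in the same libraries. In sorted E18.5 Six2 cells, 5 red cell markers summed to 1550 to 2274 CPM in ENLT1 against 104 to 210.3 in ENLWT (5 of 5 called higher), and 6 stromal markers to 732 to 854 against 245 to 472 (5 higher, 1 lower). Summed proximal tubule markers were at 451 to 492 against 1382 to 1863 CPM (6 of 6 lower) and nephron progenitor markers at 178 to 235 against 440 to 574 (5 of 5 lower). Early nephron markers summed to 1679 to 1881 against 1134 to 1239 CPM (3 higher, 1 lower), and macrophage markers to 54.7 to 67.4 against 30.5 to 33.8 (3 of 5 higher). Mesangial and pericyte markers summed to 191 to 199.6 against 283 to 312 CPM (1 higher, 3 lower of 5). That list, here and below, holds Itga8. The paper names Itga8 as a nephron progenitor marker, so the sum does not stand for mesangial cells and pericytes alone. In whole Six2 kidneys proximal tubule markers summed to 389 to 481 CPM in ENLT1 and 2423 to 2688 in ENLWT (6 of 6 lower), macrophage markers to 107 to 116 against 80.2 to 83.8 (4 of 5 higher), mesangial and pericyte markers to 804 to 913 against 1199 to 1228 (1 of 5 lower), and no red cell marker was called. Over all genes, 1392 of 22685 were called higher in these sorted cells and 690 of 23931 in these whole kidneys. None of these lists had a marker at 0 over a whole group, and the part of cell composition in the podocyte gene values was not tested.

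The start of podocyte gene expression was read from the 12 sorted Six2 libraries. At E14.5 Nphs1 had 73, 101 and 109 counts in the ENLWT libraries, or 0.569, 0.721 and 0.833 CPM, and 0.748, 0.802 and 0.761 CPM in ENLT1. The genotypes overlapped, and Nphs1 was not called (0.14 ± 0.25 SE, adjusted p = 0.790). Nphs1 was thus under 1 CPM in every library at this stage.

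At E14.5, 1 of the 8 genes was called higher in ENLT1 and 2 lower, where 4.11% of 22387 genes were called higher and 2.28% lower. Podxl was at 11.5, 7.51 and 12.5 CPM in ENLWT and 2.93, 2.35 and 2.74 CPM in ENLT1. All ENLT1 libraries were below all controls, and Podxl fell (log2 fold change -1.96 ± 0.20 SE, adjusted p = 0.000647). Clic5 was at 2.77, 1.67 and 4.10 CPM in ENLWT and 0.804, 0.647 and 0.711 in ENLT1. It was also lower in every mutant, and its controls differed more among themselves than those of Podxl (-1.96 ± 0.32 SE, adjusted p = 0.00537). Ptpro went the other way, at 5.43, 4.92 and 6.87 CPM in ENLWT and 14.2, 14.7 and 8.84 in ENLT1. Each mutant library was above each control, and Ptpro rose (log2 fold change 1.15 ± 0.21 SE, adjusted p = 0.00898).

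Among the other members at E14.5, Cdkn1c was at 1015, 935 and 801 CPM in ENLWT and 752, 591 and 725 in ENLT1. The groups were apart by less than the fold threshold (-0.39 ± 0.11 SE, adjusted p = 0.0477). Vegfa was at 209.5, 178 and 156 CPM in ENLWT and 153, 154 and 150.4 in ENLT1, with no overlap and no call (-0.23 ± 0.094 SE, adjusted p = 0.161). Synpo had 5.72, 3.93 and 6.04 CPM in ENLWT and 3.69, 1.88 and 4.43 in ENLT1, and Magi2 had 6.24, 6.52 and 6.39 and 7.47, 5.96 and 7.02. In both genes the genotypes overlapped (Synpo -0.63 ± 0.30 SE, adjusted p = 0.229, Magi2 0.11 ± 0.11 SE, adjusted p = 0.607). In the same libraries, stromal markers summed to 835 to 1712 CPM in ENLT1 against 404 to 534 in ENLWT (5 higher, 1 lower) and nephron progenitor markers to 803 to 995 against 1619 to 1895 (5 lower), and their part in these values was not tested.

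From E14.5 to E18.5, 7 of 8 genes rose in ENLWT cells at an adjusted p under 0.01 and a fold over 2, where 24.8% of 25222 genes rose. Nphs1 rose most, by 8.17 on the log2 scale, followed by Podxl (7.47), Clic5 (6.38), Ptpro (5.94), Synpo (4.89), Magi2 (3.17) and Vegfa (1.22). Cdkn1c was at -0.55, under the fold threshold. The median of the 8 was 5.41 against 0.015 over all genes. Kidneys were dissociated with trypsin at E14.5 and with collagenase at E18.5, and stage and enzyme cannot be told apart.

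In ENLT1 cells 5 of the 8 genes rose over the same interval and 1 fell, where 24.4% and 19.8% of genes did. Clic5 rose by 5.35, Podxl by 4.87, Nphs1 by 3.54, Synpo by 2.41 and Ptpro by 2.095 on the log2 scale. Magi2 did not differ detectably between the stages in ENLT1 (0.10 ± 0.11 SE, adjusted p = 0.425), and the E14.5 and E18.5 libraries overlapped. Vegfa stayed under the fold threshold (0.76 ± 0.080 SE, adjusted p = 7.41e-07). Cdkn1c fell in ENLT1 (log2 fold change -1.89 ± 0.11 SE, adjusted p = 1.38e-09).

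The difference between the genotypes in the change with stage was tested as an interaction, called at an adjusted p under 0.05, where 4.22% of genes had a lower log2 change in ENLT1 than in ENLWT. Of the 8 genes, 7 were called. The interaction was -4.64 ± 0.16 SE, adjusted p = 1.48e-09 for Nphs1, -3.85 ± 0.26 SE, adjusted p = 1.07e-06 for Ptpro, -3.07 ± 0.15 SE, adjusted p = 6.69e-08 for Magi2 and -2.61 ± 0.23 SE, adjusted p = 1.53e-05 for Podxl. It was -2.47 ± 0.31 SE, adjusted p = 0.000246 for Synpo, -1.35 ± 0.16 SE, adjusted p = 0.000127 for Cdkn1c and -0.46 ± 0.11 SE, adjusted p = 0.0213 for Vegfa. Clic5 was the exception (-1.03 ± 0.33 SE, adjusted p = 0.0762). It was already lower in ENLT1 at E14.5 and rose in both genotypes. The Clic5 and Vegfa calls each turned on 1 library. Without ENLWT E14.5 replicate 3 Clic5 was called (-1.39, adjusted p = 0.00308), and without ENLWT E14.5 replicate 2 Vegfa was not (-0.45, adjusted p = 0.0511).

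**Figure D3:**
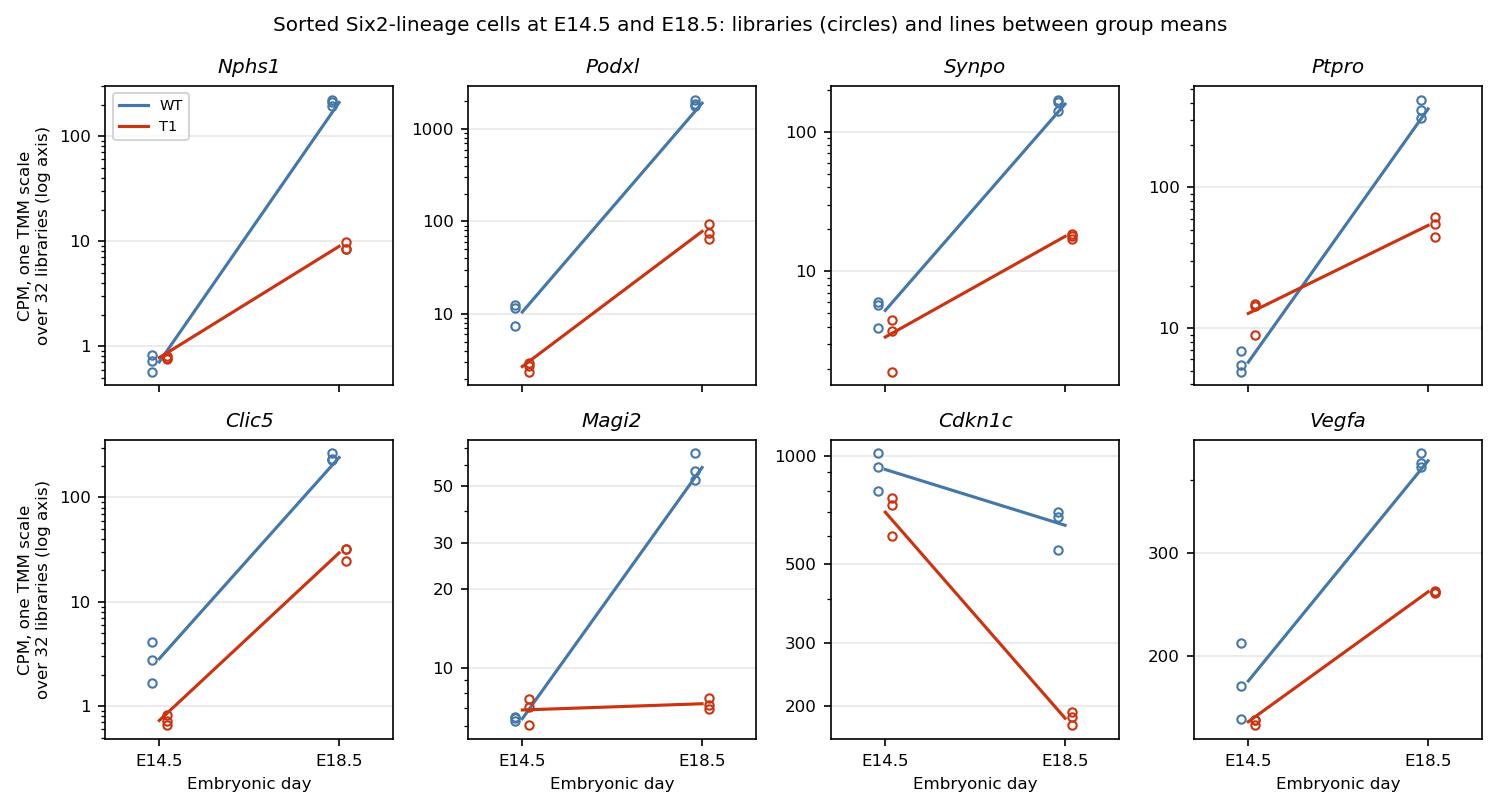
Levels of the 8 podocyte genes in sorted Six2 cells at E14.5 and E18.5 (horizontal axis, embryonic day), in CPM on 1 TMM scale over the 32 libraries, on a log axis. Points are libraries and lines join the group means of ENLWT (blue) and ENLT1 (red). The Nphs1 lines meet at E14.5 and are apart at E18.5, and the Podxl and Clic5 lines are apart at both stages.

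In sorted Foxd1 cells, which had the lowest depth, 1 of the 8 genes was called lower and none higher, where 2.18% of 12717 genes were called lower and 3.63% higher. The median of the 8 was -0.095 against -0.0040 over all genes. Clic5 was at 42.6, 26.2, 29.7 and 27.7 CPM in ENLWT and 18.3, 23.2, 24.7 and 16.0 in ENLT1. The groups did not overlap, and Clic5 fell (log2 fold change -0.63 ± 0.17 SE, adjusted p = 0.0231). The call did not hold without ENLWT replicate 1 (-0.44, adjusted p = 0.0917), ENLT1 replicate 1 (-0.59, adjusted p = 0.0568) or ENLT1 replicate 4 (-0.52, adjusted p = 0.0977).

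Ptpro in the same cells was at 54.1, 36.8, 46.0 and 37.9 CPM in ENLWT and 57.0, 68.8, 67.2 and 67.8 in ENLT1. All mutants were above all controls, and the fitted fold stayed under 1.5 (log2 fold change 0.57 ± 0.12 SE, adjusted p = 0.00278). It passed the fold threshold when ENLWT replicate 1 was left out (0.71, adjusted p = 0.000244), and also without ENLWT replicate 3 (0.60, adjusted p = 0.00513) or ENLT1 replicate 1 (0.63, adjusted p = 0.00236). Nphs1 was at 30.3, 24.2, 23.6 and 19.7 CPM in ENLWT and 22.7, 21.1, 16.7 and 21.2 in ENLT1, from 54 to 108 counts per library. The genotypes overlapped (-0.27 ± 0.15 SE, adjusted p = 0.304), as they did for the remaining members.

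Podxl was at 351, 236, 229 and 199 CPM in ENLWT and 206, 232, 282 and 222 in ENLT1 (-0.11 ± 0.13 SE, adjusted p = 0.672). Synpo was at 109, 82.8, 88.3 and 70.7 and 70.0, 86.9, 87.6 and 80.5 CPM (-0.12 ± 0.11 SE, adjusted p = 0.589). Magi2 was at 27.5, 19.5, 19.1 and 16.0 and 16.0, 23.5, 25.8 and 16.3 CPM (-0.028 ± 0.19 SE, adjusted p = 0.951). These genotypes overlapped. Among the ENLWT libraries, replicate 1 was the highest in Nphs1, Podxl, Synpo, Ptpro, Clic5, Magi2 and Vegfa. Cdkn1c, the member with the highest level per kilobase in the Foxd1 sort, was at 2539, 2557, 3131 and 2415 CPM in ENLWT and 2110, 2600, 2737 and 2648 in ENLT1 (-0.076 ± 0.087 SE, adjusted p = 0.657), and Vegfa was at 135, 104, 127 and 124 and 116, 123, 124 and 107 CPM (-0.064 ± 0.087 SE, adjusted p = 0.716). In this sort, macrophage markers summed to 152 to 214 CPM in ENLT1 against 63.8 to 154 in ENLWT (4 of 5 higher), proximal tubule markers to 57.4 to 95.3 against 113 to 289.5 (4 of 6 lower), and mesangial and pericyte markers to 669.6 to 802 against 1050 to 1462 (1 higher, 2 lower of 5), and their part was not tested.

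In whole Foxd1 kidneys 1 of the 8 genes was called, where 7.53% of 20145 genes were called lower. Vegfa was at 243, 216 and 251 CPM in ENLWT and 128, 156 and 146 in ENLT1. All mutants were below all controls, and Vegfa fell (log2 fold change -0.72 ± 0.074 SE, adjusted p = 9.72e-06). Synpo was at 173, 173 and 161 CPM in ENLWT and 99.0, 130.4 and 126 in ENLT1, and Clic5 at 96.5, 93.0 and 94.8 and 57.9, 80.5 and 74.1. Both were lower in every mutant, and both stayed under the fold threshold (-0.51 ± 0.084 SE, adjusted p = 0.000473 and -0.42 ± 0.091 SE, adjusted p = 0.00330). Proximal tubule markers, in these kidneys, summed to 1164 to 1497 CPM in ENLT1 against 2587 to 2708 in ENLWT (5 of 6 lower) and nephron progenitor markers to 399 to 500.1 against 261 to 277 (4 of 5 higher). Mesangial and pericyte markers summed to 572 to 629.6 against 1039 to 1284 CPM (1 of 5 lower), and the part of these cells was not tested. Over all genes, 534 of 20145 were called higher.

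Nphs1 in whole Foxd1 kidneys was at 52.7, 52.2 and 53.3 CPM in ENLWT and 35.3, 48.5 and 51.6 in ENLT1 (-0.22 ± 0.10 SE, adjusted p = 0.114). The first ENLT1 library was the lowest, and without it the log2 fold change was -0.07. Podxl was at 565, 585 and 568 and 434, 559 and 586 CPM (-0.12 ± 0.087 SE, adjusted p = 0.309), Magi2 at 15.3, 15.4 and 16.1 and 10.8, 15.2 and 15.0 (-0.19 ± 0.11 SE, adjusted p = 0.218), and Cdkn1c at 398, 426 and 382 and 352, 340 and 349 (-0.21 ± 0.055 SE, adjusted p = 0.00886). Ptpro, at 63.7, 68.3 and 69.9 CPM in ENLWT and 64.1, 80.5 and 80.4 in ENLT1, was the member with a positive value (0.16 ± 0.079 SE, adjusted p = 0.147). Of these 5 genes, the genotypes overlapped for Podxl and Ptpro, and none was called. ENLT1 replicate 1 was the lowest of its group in every member except Cdkn1c.

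Whether the T1 effect differed between lineages was tested as an interaction, Foxd1 minus Six2, at an adjusted p under 0.05. In sorted E18.5 cells all 8 genes were called higher, where 8.25% of 14869 genes were. The differences were 4.44 ± 0.21 SE, adjusted p = 8.37e-12 for Podxl, 4.22 ± 0.17 SE, adjusted p = 1.28e-12 for Nphs1 and 3.26 ± 0.18 SE, adjusted p = 7.8e-11 for Ptpro. Synpo (2.98), Magi2 (2.92), Clic5 (2.34), Cdkn1c (1.66) and Vegfa (0.62) followed, so that the log2 fold change of every member was lower in Six2 than in Foxd1 cells. In whole kidneys 5 of 8 were called, where 4.82% of genes were: Nphs1 (2.45 ± 0.20 SE, adjusted p = 1.16e-05), Ptpro (2.02 ± 0.17 SE, adjusted p = 1.16e-05), Podxl (1.58 ± 0.16 SE, adjusted p = 5.15e-05), Magi2 (1.09 ± 0.21 SE, adjusted p = 0.00623) and Synpo (0.62 ± 0.13 SE, adjusted p = 0.0120). Clic5 (0.44 ± 0.16 SE, adjusted p = 0.104), Cdkn1c (-0.26 ± 0.14 SE, adjusted p = 0.286) and Vegfa (-0.23 ± 0.12 SE, adjusted p = 0.290) were not. The Synpo call did not hold without the first ENLT1 whole Six2 kidney (0.61, adjusted p = 0.0529), and Clic5 was called without the first ENLT1 whole Foxd1 kidney (0.57, adjusted p = 0.00799). Without the second ENLWT whole Six2 kidney Cdkn1c was called, in the lower direction (-0.47, adjusted p = 0.00691). Read length, driver line and sequencing run differ between the lineages and cannot be told apart from them.

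Levels were also set on 1 TMM scale over the 32 libraries, although kits and read lengths differ between tables. Sorted ENLWT Six2 cells at E18.5 had the highest mean of the 11 groups for 6 members. For Nphs1 the mean there was 209 ± 13.6 CPM (SD, n = 3), followed by whole Foxd1 kidneys of ENLWT and ENLT1 and whole ENLWT Six2 kidneys, whose neighbours in the order overlapped. Sorted Foxd1 cells of both genotypes came next, then the mutant Six2 groups of E18.5, and the E14.5 groups were lowest and overlapped each other. Podxl had the same top group (1904 ± 156 CPM), and its lowest group was ENLT1 at E14.5 (2.70 ± 0.309), below ENLWT at E14.5 without overlap. Ptpro was highest at 361 ± 55.5 CPM and lowest in ENLWT at E14.5 (5.74 ± 1.02), and Clic5 was highest at 242 ± 20.1 and lowest in ENLT1 at E14.5 (0.729 ± 0.0826). Synpo was highest in whole ENLWT Foxd1 kidneys (173 ± 7.03 CPM), which overlapped sorted ENLWT Six2 cells at E18.5 (158 ± 15.0).

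Magi2 was highest in sorted ENLWT Six2 cells at E18.5 (58.7 ± 7.14 CPM, SD, n = 3), while its 5 lowest groups, from sorted ENLT1 cells at E18.5 (7.28 ± 0.344) down to whole ENLT3 kidneys (6.36 ± 0.413), overlapped from neighbour to neighbour. Cdkn1c had another order, with sorted Foxd1 cells highest (2555 ± 258 in ENLWT and 2320 ± 248 in ENLT1, overlapping), sorted ENLWT Six2 cells at E14.5 next (917 ± 109) and sorted ENLT1 Six2 cells at E18.5 lowest (185.3 ± 7.87). Vegfa ran from 432 ± 11.7 CPM in sorted ENLWT Six2 cells at E18.5 to 108 ± 6.97 in sorted ENLT1 Foxd1 cells, the smallest ratio of highest to lowest group among the 8. Per kilobase of exon, the levels in sorted ENLWT Six2 cells at E18.5 were 347 ± 28.4 CPM per kb for Podxl and 314 ± 40.0 for Cdkn1c, which overlapped, then 101 ± 2.73 for Vegfa, 53.7 ± 8.26 for Ptpro, 31.6 ± 2.06 for Nphs1 and 27.5 ± 2.29 for Clic5, of which the last pair overlapped, and 16.6 ± 1.57 for Synpo and 5.17 ± 0.629 for Magi2.

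Genes with a pattern like that of Nphs1 were ranked by Pearson's r of log CPM over the 12 sorted Six2 libraries, which share their stages and genotypes, so r is a description without a test. The 10 highest were Ripor1 (0.998), Plekhh2 and Tns2 (both 0.995), Tcn2 and Col4a3 (both 0.994), Tspan2 and Fabp3 (both 0.993), H2-Q6 and Slc22a27 (both 0.992) and Tkfc (0.991). H2-Q6 belongs to a family of near-identical genes, so its counts are uncertain. Among the members r with Nphs1 was 0.981 for Ptpro, 0.980 for Synpo, 0.976 for Podxl, 0.968 for Vegfa, 0.960 for Clic5, 0.914 for Magi2 and -0.271 for Cdkn1c. Over the 6 libraries of E18.5 alone r for Cdkn1c was 0.991. The gene most like Podxl was Lrrc4 (0.995), that for Synpo Aplp1 (0.996), for Ptpro Thsd7a (0.993), for Clic5 Hspa12a (0.994), for Magi2 Gm45276 (0.996), for Cdkn1c St6galnac6 (0.978) and for Vegfa Gm14494 (0.995).

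The other genes of the podocyte programme were read from lists of slit diaphragm partners, foot process and apical coat proteins, podocyte transcription factors, glomerular basement membrane components, other podocyte-enriched genes, the VEGF family, and CIP/KIP inhibitors with the imprinted neighbours of Cdkn1c. The counts here leave out the 8 members. In sorted Six2 cells at E18.5, 3 of 13 slit diaphragm genes were called lower and none higher, among them the nephrin relative Kirrel2 (-2.41) and the junction protein Tjp1 (-0.63). Of 17 foot process genes 7 were lower and none higher, led by Rhpn1 (-3.53), Slc9a3r2 (-1.66) and the GTPase regulator Arhgap24 (-1.25). The list medians were -0.41 for slit diaphragm and -0.34 for foot process genes, against 0.015 over all genes. Of all 22685 tested genes, 1256 (5.54%) were called lower and 1392 higher.

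Of 6 podocyte transcription factors 3 were lower in sorted E18.5 Six2 cells, Lmx1b (-1.33) and Tcf21 (-0.93) among them. Wt1, the zinc finger factor that podocytes keep from the progenitor stage, was at 568, 537 and 585 CPM in ENLWT and 408, 416 and 429 in ENLT1, a log2 fold change of -0.43 that stayed under the fold threshold. Of 10 basement membrane genes 5 were lower and 2 higher: the collagen IV chains Col4a3 (-4.10) and Col4a4 (-3.25) and nephronectin Npnt (-1.15) led the lower ones, and the nidogens Nid2 (0.85) and Nid1 (0.74) were higher. Of 11 other podocyte-enriched genes 7 were lower, led by Thsd7a (-3.91), the serine protease Htra1 (-2.67) and Nebl (-2.58), and 2 were higher, the guidance ligand Sema3a (1.70) and the phospholipase receptor Pla2r1 (1.48). The VEGF family had 3 of 9 genes higher, Vegfd (1.06), the co-receptor Nrp2 (0.82) and Vegfc (0.65), and Pgf lower (-0.99). Beside these list counts, 1392 of 22685 tested genes were called higher and 5.54% lower. None of 11 CIP/KIP and imprinted genes was called by edgeR's quasi-likelihood test beside Cdkn1c, and 2 were higher and 3 lower at an unadjusted p under 0.05, where 15.07% of all genes were higher and 15.53% lower.

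In whole ENLT1 kidneys of the Six2 lineage, 2 slit diaphragm genes were lower, Kirrel2 among them (-2.099). Of all 23931 tested genes, 4.88% were called lower there and 690 genes higher. Rhpn1 (-2.51) and the ezrin-binding Slc9a3r1 (-0.96) were the lower foot process genes, and 2 transcription factors were lower, Lmx1b among them (-1.01). Of the basement membrane list 4 genes were lower, led by Col4a3 (-1.59). Other podocyte-enriched genes had 4 lower, led by Thsd7a (-1.27), and Nrp2 was the called VEGF gene (0.71). Slc22a18 (-0.94) and Phlda2 (-0.79), imprinted neighbours of Cdkn1c, were lower, while Cdkn1c was not. In ENLT3, against the same controls, Kirrel2 (-2.54), Rhpn1 (-2.59), Lmx1b (-1.47), Foxc1 (-0.65) and Col4a3 (-1.82) were lower and Tcf21 was higher (0.69).

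At E14.5 the lists were mixed, where 4.11% of all tested genes were called higher and 2.28% lower. Kirrel2 (-3.49) was the called slit diaphragm gene, and 3 transcription factors were lower, Foxc1 (-0.95) and Lmx1b (-0.65) among them, as were 3 foot process genes, led by Slc9a3r1 (-1.10). Col4a4 (2.82) and Nid1 (0.82) were higher, and 3 other podocyte-enriched genes rose, Thsd7a (1.37), Pla2r1 (1.24) and Sema3a (1.16), with Robo2 (-0.74) and Nebl (-0.64) lower. Thsd7a thus rose at E14.5, as Ptpro did, and was lower at E18.5. In the VEGF family Vegfd was higher (2.93) and Pgf (-1.91) and Flt4 (-0.72) were lower. From E14.5 to E18.5 in ENLWT cells, 8 of 13 slit diaphragm genes rose and none fell, and in ENLT1 cells 8 rose and 1 fell. Of 11 other podocyte-enriched genes 7 rose in ENLWT and 5 in ENLT1. Over all genes, 24.8% rose in ENLWT, and in ENLT1 24.4% rose and 19.8% fell.

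In sorted Foxd1 cells none of 17 foot process genes was called by edgeR's quasi-likelihood test (2 higher and 1 lower at an unadjusted p under 0.05, where 12.31% of all genes were higher and 11.02% lower), and slit diaphragm genes had Plce1 higher (1.26) and Nck2 lower (-0.61). Tcf21, which stromal cells also express, fell by 0.99 on the log2 scale and was the called transcription factor. Col4a4 (-1.06) and Col4a3 (-1.04) were lower and Lamb2 higher (0.66), and Nrp2 (0.83) and Pgf (0.72) were higher and Vegfd lower (-0.87). In whole Foxd1 kidneys no slit diaphragm gene, foot process gene or podocyte transcription factor was called by the same test. At an unadjusted p under 0.05, 2 of 13 slit diaphragm genes were higher and 1 lower, 4 of 17 foot process genes were higher and 4 lower, and 4 of 6 transcription factors were higher and 1 lower, where 21.12% of all genes were higher and 21.9% lower. Col4a4 (-0.86), Col4a3 (-0.75) and Vegfd (-0.93) were lower there, as were the imprinted genes Slc22a18 (-1.24), Kcnq1ot1 (-1.10) and Phlda2 (-1.004).

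**Figure D4:**
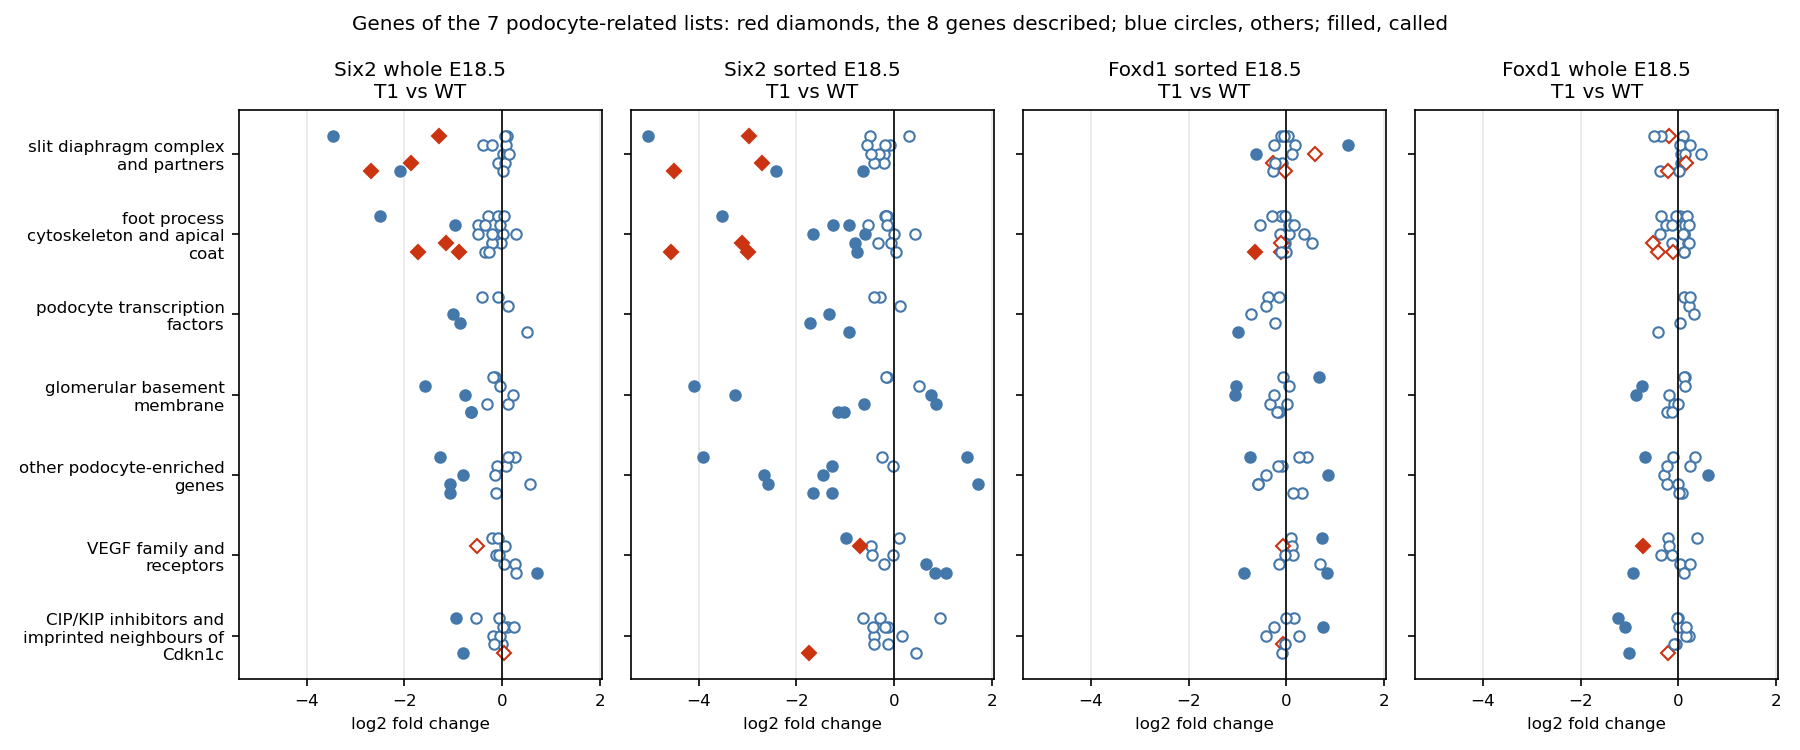
Log2 fold changes (ENLT1 minus ENLWT) of the genes of 7 podocyte-related lists in 4 comparisons, 1 point a gene, with the 8 members as red diamonds and filled symbols for called genes. In sorted Six2 cells at E18.5 the called members lie between -4.57 and -0.70, and in both Foxd1 comparisons most points lie close to 0.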

How the data were processed

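RNA was sequenced from 32 libraries of sorted cells and whole kidneys. The authors made the deposited counts, whole numbers of reads per Ensembl gene, from polyadenylated RNA. Whole kidneys were prepared with a stranded mRNA kit and sorted cells with an ultra-low-input kit. Reads were aligned to mm10 with HISAT2 and counted with HTSeq regardless of strand. Unstranded counting adds antisense reads to a gene, and amplification from few cells adds spread. The SEs and p-values rest on the spread between the libraries of each fit.

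Gene names came from GENCODE vM21, which names 55536 of the 55806 identifiers in any table. Statistics were computed with edgeR 4.0.16 under R 4.3.3: filterByExpr (minimum count 10, minimum total 15), TMM scaling, glmQLFit and glmQLFTest, with Benjamini-Hochberg adjustment over all genes tested. Calls used an adjusted p under 0.05 with a fold over 1.5, for development under 0.01 with a fold over 2, and for interactions under 0.05. Whole Six2 kidneys of 3 genotypes were fitted together, the other genotype comparisons on their own libraries, development on 12 and the sorted lineage interaction on 14 libraries. The fits were tested on simulated counts with 200 changed genes. SE is the log2 fold change divided by the root of the F statistic. Groups came from sample titles and genotypes. The 8 genes, the pathway lists and the cell type markers were chosen with earlier results of these data known. Genes named beside the members were at most the 3 called genes of each list with the largest rise and the 3 with the largest fall, Wt1 and Tcf21, Mllt1, the 10 genes most like Nphs1 and those most like each other member. Six3 and Nphs1os were named as checks, outside that rule. Some list genes that the rule names are not reported here. Alternatives were other scaling (RLE factors, library size), other filters, no fold threshold, edgeR's exact test, DESeq2 1.42.0, a replicate block and leaving out each library. Figures were drawn with matplotlib 3.10.9.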

Additional observations from a re-analysis of the deposited data

Results flagged for a closer look

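In sorted Foxd1 cells, ENLT1 replicate 1 stood apart from its group in Ptpro, at 57.0 CPM against 67.2 to 68.8 in the other 3 libraries, a gap of 0.867 of the group's range. Chance sets apart about 1 in 20 groups by this measure.

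The change with stage differed between genotypes, by a test of the interaction in edgeR, for 7 of the 8 genes. On the log2 scale, ENLT1 minus ENLWT, the difference was -4.636 for Nphs1, -2.605 for Podxl, -2.474 for Synpo, -3.845 for Ptpro, -3.071 for Magi2, -1.345 for Cdkn1c and -0.4635 for Vegfa.

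The T1 effect differed between lineages, also by an interaction test, Foxd1 minus Six2. In sorted E18.5 cells the difference was 4.22 for Nphs1, 4.437 for Podxl, 2.977 for Synpo, 3.262 for Ptpro, 2.343 for Clic5, 2.922 for Magi2, 1.656 for Cdkn1c and 0.6214 for Vegfa. In whole E18.5 kidneys it was 2.448 for Nphs1, 1.579 for Podxl, 0.6202 for Synpo, 2.015 for Ptpro and 1.086 for Magi2.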

How the results depend on the processing

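Sorted Foxd1 libraries, the shallowest, limit what could be called there, and whole Six2 groups of 2 libraries limit the T3 against T1 comparison. Same-numbered libraries of different groups correlated at -0.0791 to 0.139 after group means were subtracted. Differently numbered pairs were not compared, so pairing by replicate number was not settled, and the main fits used no block. With a replicate block Synpo was also called lower at E14.5 (-0.69, adjusted p = 0.0412, 3 members lower in place of 2), and no other member call changed. With no fold threshold the genes called were 3393 (Six2 whole T1), 4189 (T3), 2884 (Six2 sorted E14.5), 4603 (Six2 sorted E18.5), 1363 (Foxd1 sorted) and 6732 (Foxd1 whole), and members called lower were 7 in place of 6 in whole Six2 T1 and T3 kidneys, 3 in place of 2 at E14.5, 1 in place of 0 in ENLWT development and 4 in place of 1 in whole Foxd1 kidneys, and members called higher were 6 in place of 5 in ENLT1 development and 1 in place of 0 in Foxd1 sorted cells. For T3 against T1, where 1 gene was called, no filter gave 300, edgeR's exact test 88, DESeq2 75 and a fit of these 2 genotypes alone 14. The whole-kidney lineage interaction called 1910 genes, 3130 without a filter and 2883 with DESeq2. Clic5 was called there without a filter (0.43, adjusted p = 0.00072) and with DESeq2 (0.46, adjusted p = 0.0351). Clic5 was likewise called in the stage by genotype interaction without a filter (-1.08, adjusted p = 0.00289) and with DESeq2 (-1.06, adjusted p = 0.036). Over the 6 E18.5 libraries alone, 1 of the 10 genes most like Nphs1 was shared. T3 minus T1 turned sign for Podxl with RLE factors (-0.0044), no filter (-0.0053) and DESeq2 (-0.0044), and for Synpo (-0.0016, -0.0027 and -0.0016). The causes were not tested.

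Leaving out 1 library at a time gave these ranges. In whole Six2 kidneys T1 Cdkn1c was at -0.12 to 0.24 with 1163 to 2092 genes called. For T3 against T1, Nphs1 was at -0.18 to 0.086, Podxl -0.064 to 0.063, Synpo -0.080 to 0.083, Clic5 -0.245 to 0.0079 and Magi2 -0.029 to 0.11, with 0 to 16 genes called. The stage by genotype interaction called 1327 to 2176 genes (1327 without sorted ENLWT E18.5 replicate 2) and 6 to 8 members lower. In sorted Foxd1 cells Podxl was at -0.21 to 0.089, Synpo -0.20 to 0.014, Magi2 -0.16 to 0.16 and Cdkn1c -0.12 to 0.014, with 0 to 1 member higher and 0 to 1 lower. In whole Foxd1 kidneys Podxl was at -0.20 to 0.0026. The whole-kidney lineage interaction called 914 to 3266 genes (914 and 1060 without ENLT1 Six2 replicates 2 and 1, 3266 without ENLWT Six2 replicate 1) and 0 to 1 member lower. Scaling moved the median of all genes by over 0.1 in ENLWT development (RLE 0.132, library size -0.137), where 7 members rose under each. With library size, 59.0% of stage interaction calls were higher in place of 48.3%, and 37.6% of sorted lineage calls in place of 51.9%. Among log2 fold changes of the 8 genes, 804 values with 1 library left out kept their direction and their side of the threshold. Of the rest, 17 changed sign, 6 gained a call and 5 lost one. Under the other settings 739 values kept both, 6 changed sign and 14 gained a call.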
